A study of Mus musculus with 247 samples.

Results

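The 41 genes described here encode lysosomal proteins, and their RNA and chromatin were measured in RAW264.7 cells, a mouse macrophage cell line. They comprise 10 proteases and their partners, 10 glycosidases, 6 lipid hydrolases and lipid-handling proteins, 7 lysosomal membrane proteins and 8 subunits of the proton pump. The genes were taken by name, with no threshold on a measured value, though with earlier results of these data known. They were found by symbol in the RNA-seq table and by the annotated gene of each site in the chromatin tables. Each of the 41 had a row among the 14378 genes of the RNA-seq table, and each passed the filter on low values (at least 10 reads at the median depth in 4 libraries), which left 11831 genes to test. Their sites numbered 212 of 73206 in ATAC-seq, which measures open chromatin, and 173 of 52093 for the macrophage transcription factor PU.1. There were 209 of 58888 sites for the AP-1 subunit JunB, 113 of 26718 for the Mediator subunit MED1 and 78 of 23360 for RNA polymerase II (Pol2).

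The cells were wild type (WT) or carried a CRISPR disruption of Gps2 (GPS2 KO), which encodes a subunit of a nuclear corepressor complex. All were grown in DMEM with serum. Poly(A) RNA was sequenced from untreated cells and from cells given lipopolysaccharide (LPS), a bacterial cell wall component that activates macrophages, at 10 ng/ml for 6 hours, with 4 libraries for each of the 4 groups. ChIP-seq used 2 libraries a group: PU.1 and JunB in untreated cells and after 2 hours of LPS, and MED1 and Pol2 after 2 hours of LPS only. ATAC-seq compared 3 untreated KO libraries with 3 untreated libraries labelled CRISPR_KO_Ctrl. The labels name neither separate KO clones nor separate cultures. The p-values therefore measure the spread between these libraries, which may be technical, and clone and loss of GPS2 cannot be told apart.

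Lysosomes degrade proteins, sugars and lipids with hydrolases that work in an acid lumen. The vacuolar ATPase, a rotary pump whose cytosolic V1 sector splits ATP and whose membrane V0 sector carries protons, makes that lumen acid, and heavily glycosylated membrane proteins line the limiting membrane. Many lysosomal genes carry E-box elements of the type bound by the transcription factors TFEB, TFE3 and MITF, and macrophages use the same proteases to degrade phagocytosed material and to process antigens.

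RNA libraries held 12094940 to 22968591 mapped reads, as inferred from the deposited values. Values below are normalised reads per 10000000 mapped reads, after division by a scaling factor for library composition. Gps2 (NM_019726, mm9 chromosome 11, 69727522 to 69730096, plus strand) fell in KO cells, from 458, 436, 425 and 415 without LPS in WT to 132, 135, 129.6 and 133, and from 420.4, 424, 422 and 496 to 76.9, 90.3, 98.5 and 95.6 with LPS, so the transcript was reduced and not absent. Among the WT libraries with LPS, replicate 4 stood apart: its chi-square per gene against the other 3 was 98.6 to 137.7, against 5.20 to 9.51 among those 3. For the 41 lysosomal genes it lay above the other 3 libraries 19 times, below them 17 times and within their range 5 times. Results with LPS in WT are therefore also given without it. Scaling by library totals alone shifted the median of all genes by -0.48 (log2) in the LPS comparison of WT cells and by -0.43 in that of KO cells, and by -0.071 and -0.0030 in the comparisons of KO with WT cells without and with LPS. All RNA changes below are relative to the median gene.

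The lysosomal genes were among the most abundant transcripts of these cells. Per kilobase of transcript, in normalised reads per 10000000, their median level was 794.9 in untreated WT cells against 92.2 for all tested genes, and 25 of the 41 lay in the top 10% of genes. The corresponding numbers in the top 10% were 26 in untreated KO cells, 22 in WT cells with LPS and 24 in KO cells with LPS. On this scale Cd68, a glycoprotein of macrophage lysosomes and endosomes, led in untreated WT cells with 6388, followed by the aspartic protease gene Ctsd with 5601 and the carboxypeptidase gene Ctsz with 4598. The lowest levels belonged to the aminopeptidase gene Ctsh with 11.7, the pump gene Atp6v0a1 with 68.0 and the dipeptidyl peptidase gene Ctsc with 88.1. In untreated KO cells Ctsd led with 13924 and Ctsb followed with 8916, and with LPS the order was led by Ctss with 8104 in WT and by Ctsd with 8827 in KO cells.

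Without LPS, loss of GPS2 was accompanied by higher RNA of most of these genes. Of the 41, 23 rose in KO cells and 2 fell (adjusted p under 0.05 over all genes tested), where 18% of all tested genes were called higher and 17.4% lower. The median change of the 41 was 0.31 (log2) against 0.0088 for all genes. The proteases moved most, with 8 higher and 2 lower of 10 and a median change of 0.60. Of the glycosidases 5 of 10 were higher, of the lipid group 2 of 6, of the membrane proteins 3 of 7 and of the pump subunits 5 of 8, and none of these 31 was lower. Without the WT library with LPS that stood apart, which shares the estimate of the spread, 30 were higher and 4 lower, against 30% and 28.8% of all genes tested in that fit, with Ppt1, Cd63, Cd68, Laptm5, Naglu, Neu1 and Man2b1 added to those that rose and Glb1 and Fuca1 to those that fell. Counted without a test, all 4 KO libraries lay above all 4 WT libraries for 29 of the 41 genes and below them for 4, against 27.9% and 27.2% of all tested genes.

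**Figure D1:**
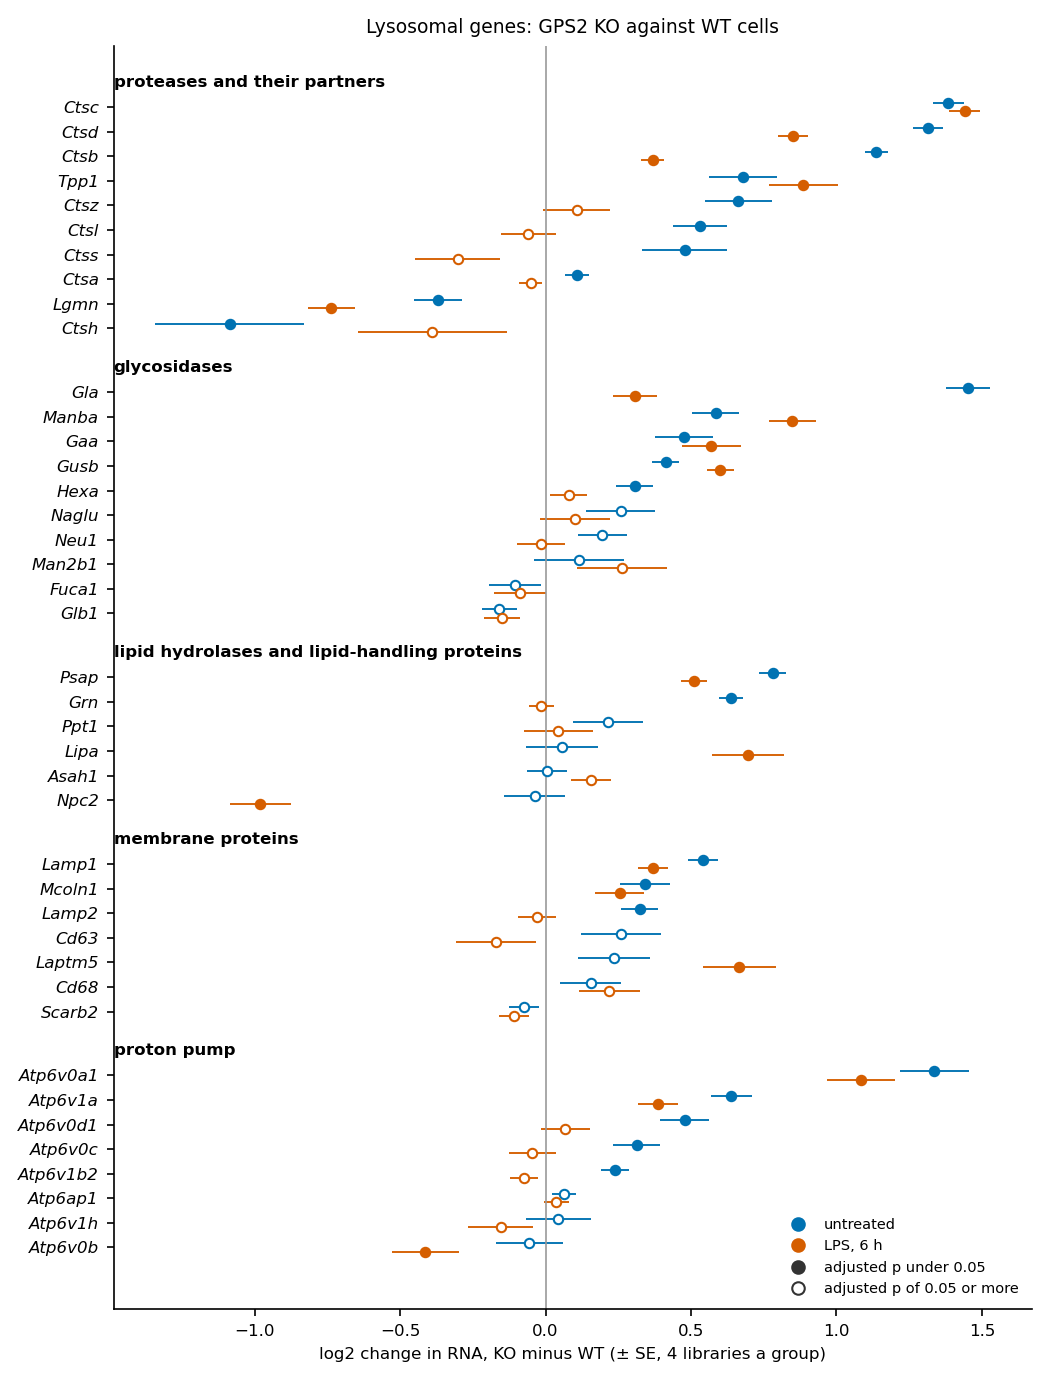
Change in RNA between KO and WT cells for the 41 lysosomal genes, grouped by role, without LPS (blue) and with LPS (orange). The x axis is the log2 change with bars for 1 standard error, and filled points have an adjusted p under 0.05. Without LPS 23 genes are filled to the right of 0 and 2 to the left, against 15 and 3 with LPS.

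The largest rises without LPS came from genes of 3 different roles. Gla (NM_013463, mm9 chromosome X, 131122708 to 131135544, minus strand) encodes alpha-galactosidase A, which removes terminal galactose from glycolipids. It stood at 351, 339.5, 338 and 337 in WT and at 913, 902, 943 and 988 in KO libraries. Every KO library lay far above every WT library, with little spread inside either group. The change was 1.45 ± 0.076 (log2 with SE, adjusted p = 3.97e-10), a 2.74-fold rise.

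Ctsc (NM_009982, mm9 chromosome 7, 95426595 to 95464371, plus strand) encodes cathepsin C, the dipeptidyl peptidase that activates serine proteases of leukocyte granules. Its WT libraries held 658, 665, 646 and 659 and its KO libraries 1710.2, 1727, 1720.3 and 1709.6. The groups were far apart, and the change was 1.38 ± 0.053 (adjusted p = 1.42e-11). Atp6v0a1 (NM_001362637, mm9 chromosome 11, 100870755 to 100925031, plus strand) encodes an isoform of the large membrane subunit of the pump, which directs the pump to a compartment. Its WT libraries gave 257, 271, 270.0 and 293, and its KO libraries 686, 673, 715 and 687. These groups did not overlap either, and the rise was 2.53-fold (log2 1.34 ± 0.12, adjusted p = 2.30e-07).

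Ctsd (NM_009983, mm9 chromosome 7, 149561815 to 149573732, minus strand) encodes cathepsin D, the main aspartic protease of lysosomes. In WT cells it held 10881, 10595, 10818 and 10405, and in KO cells 27066, 26858, 25627 and 26602. No library of 1 group reached the range of the other, and the change was 1.31 ± 0.051. Ctsb (NM_007798, mm9 chromosome 14, 63741299 to 63764760, plus strand), the gene of the cysteine protease cathepsin B, was higher still in reads, with 19783, 18609, 19102 and 19247 in WT and 42883, 41590.5, 42625 and 41636 in KO libraries, and rose by 1.14 ± 0.040 (adjusted p = 5.14e-12).

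The other proteases that rose were Tpp1 (log2 0.68), which removes tripeptides from protein ends, Ctsz (0.66), the endopeptidase Ctsl (0.53), the invariant-chain protease Ctss (0.48) and Ctsa (0.11), which stabilises lysosomal sialidase. Ctsa was close to the threshold (adjusted p = 0.0468) and lost its call with library totals, with median-of-ratios scaling, with no filter on low values, with the replicate block and in 13 of the 16 fits that left out 1 library. The calcium channel gene Mcoln1 lost its call with library totals, and Ctss without untreated WT replicate 3. Both genes that fell were proteases. Lgmn (NM_011175, mm9 chromosome 12, 103632292 to 103678023, minus strand) encodes legumain, which cuts after asparagine and matures other cathepsins. It stood at 6231, 6029, 5999 and 5952 in WT and at 4728, 4654, 4732 and 4627 in KO cells, with every KO library below every WT library, a change of -0.37 ± 0.081 (adjusted p = 0.00218). Ctsh (NM_007801, mm9 chromosome 9, 89949105 to 89970933, plus strand), an aminopeptidase, was scarce throughout, with 20.2, 18.1, 19.1 and 18.2 in WT and 5.61, 6.62, 10.1 and 12.8 in KO libraries. The KO values were all below the WT values but spread more than 2-fold among themselves, and the change was -1.09 ± 0.26 (adjusted p = 0.00362).

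Among the glycosidases, Manba rose by 0.58, Gaa, which degrades glycogen, by 0.48, Gusb, which acts on glucuronides, by 0.41 and Hexa, a subunit of beta-hexosaminidase, by 0.31. Glb1, Neu1, Naglu, Man2b1 and Fuca1 did not pass the test, with changes from -0.16 for Glb1 to 0.26 for Naglu. Psap, the precursor of the saposins that present lipids to hydrolases, rose by 0.78 ± 0.045, and Grn, the progranulin gene, by 0.64 ± 0.042. Lipa, the acid lipase of cholesteryl esters, Asah1, the acid ceramidase, Npc2, the soluble cholesterol carrier, and Ppt1, which removes palmitate from proteins, had changes of 0.056, 0.0052, -0.037 and 0.22 that did not pass. Of the membrane proteins Lamp1 rose by 0.54, Mcoln1 by 0.34 and Lamp2 by 0.32. In the pump both sectors contributed: the catalytic V1 subunit gene Atp6v1a rose by 0.64, the V0 genes Atp6v0d1 and Atp6v0c by 0.48 and 0.31, and Atp6v1b2, which forms the other part of the ATP-splitting head, by 0.24.

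Among genes not called without LPS and with a promoter in the RefSeq table, Npc2 and Atp6v0b had the smallest changes. With LPS both were lower in KO than in WT cells. The promoters of these 2 and of the 4 genes that rose most without LPS are shown to set their sequence beside their RNA. They are the 250 bases before the RefSeq start (build GRCm38.p6), read 5′ to 3′ on the strand of the gene. Capitals mark matches, on either strand, to CACGTG, to TCACGTG and TCATGTG (the letters bound by the TFEB family), to GAGGAAG (a PU.1 core) or to TGANTCA (AP-1). TCACGTG contains CACGTG, and TCACGTGA holds TCACGTG on both strands.
Gla, chrX:134601006-134601255, minus strand: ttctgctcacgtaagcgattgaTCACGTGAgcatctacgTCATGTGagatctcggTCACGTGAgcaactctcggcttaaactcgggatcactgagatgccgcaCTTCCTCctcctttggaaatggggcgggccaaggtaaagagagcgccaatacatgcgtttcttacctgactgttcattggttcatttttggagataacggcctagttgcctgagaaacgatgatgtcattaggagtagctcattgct
Ctsc, chr7:88277835-88278084, plus strand: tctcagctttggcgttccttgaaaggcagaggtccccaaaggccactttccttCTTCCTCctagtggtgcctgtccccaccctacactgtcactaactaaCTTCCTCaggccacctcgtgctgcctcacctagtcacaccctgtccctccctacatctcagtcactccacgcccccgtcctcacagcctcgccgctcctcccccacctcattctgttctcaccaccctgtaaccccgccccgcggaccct
Atp6v0a1, chr11:101010148-101010397, plus strand: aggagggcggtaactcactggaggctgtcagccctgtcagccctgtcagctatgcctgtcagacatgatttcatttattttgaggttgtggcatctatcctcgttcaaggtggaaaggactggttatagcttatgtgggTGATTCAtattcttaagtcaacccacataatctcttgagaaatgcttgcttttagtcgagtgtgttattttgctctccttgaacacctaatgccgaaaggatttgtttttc
Ctsd, chr7:142387828-142388077, minus strand: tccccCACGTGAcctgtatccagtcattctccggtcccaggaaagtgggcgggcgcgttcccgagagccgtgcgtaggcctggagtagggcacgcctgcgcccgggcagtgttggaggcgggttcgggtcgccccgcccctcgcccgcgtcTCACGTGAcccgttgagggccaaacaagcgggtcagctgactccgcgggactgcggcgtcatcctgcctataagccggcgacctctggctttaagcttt
Npc2, chr12:84773113-84773362, minus strand: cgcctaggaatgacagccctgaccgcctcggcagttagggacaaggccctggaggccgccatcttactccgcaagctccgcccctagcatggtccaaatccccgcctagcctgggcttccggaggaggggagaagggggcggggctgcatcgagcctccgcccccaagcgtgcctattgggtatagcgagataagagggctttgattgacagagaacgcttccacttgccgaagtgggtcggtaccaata
Atp6v0b, chr4:117887330-117887579, minus strand: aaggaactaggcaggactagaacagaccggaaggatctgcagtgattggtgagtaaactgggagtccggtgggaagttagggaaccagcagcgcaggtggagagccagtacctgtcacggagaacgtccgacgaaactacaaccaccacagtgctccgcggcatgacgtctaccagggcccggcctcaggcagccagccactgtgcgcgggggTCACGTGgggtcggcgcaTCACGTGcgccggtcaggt

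The Gla promoter held 2 copies of TCACGTGA, 1 of TCATGTG and 1 of GAGGAAG, and that of Ctsd 3 matches to TCACGTG. Ctsc held 2 of GAGGAAG and Atp6v0a1 1 of TGANTCA, with no E-box match in either. Atp6v0b, whose RNA did not pass the test without LPS, held 2 matches to TCACGTG, and Npc2 none to any of these motifs. Promoters of 36 of the 41 genes were in the RefSeq table, each with 300 bases that run 50 past the start. TCACGTG or TCATGTG occurred in 18 of those 36, and in 7.40% of all 32851 promoters of that length. The share was 12 of 21 among the genes called higher without LPS, 5 of 14 among those not called and 1 of 1 for the gene called lower, Lgmn. CACGTG occurred in 13 of the 36 (7.15% of all promoters), GAGGAAG in 8 (13.6%) and TGANTCA in 5 (7.81%). These matches describe the sequence only.

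**Figure D2:**
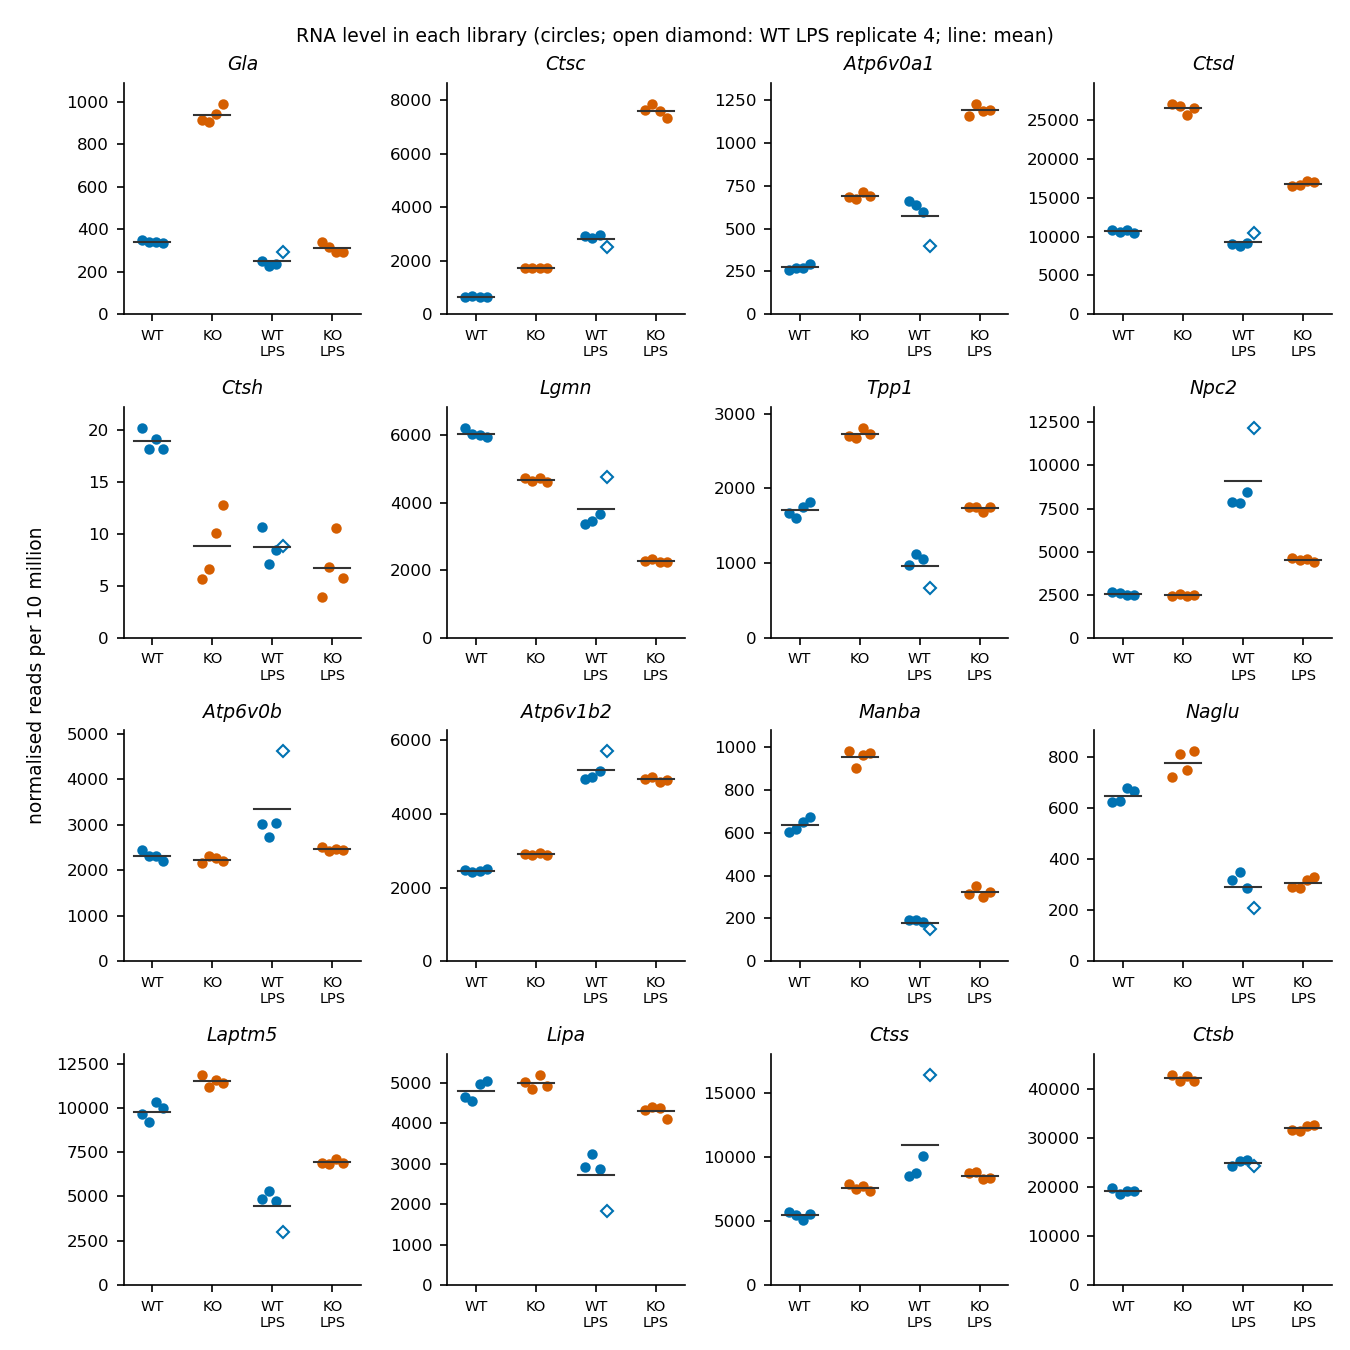
Normalised reads per 10000000 in every RNA library for the 16 lysosomal genes named with values by library. Each panel is 1 gene with its own y axis from 0, the x axis gives the 4 groups, points are libraries, lines are group means, and the open diamond is the WT library with LPS that stood apart. Gla, Ctsc, Atp6v0a1, Ctsd and Ctsb lie above WT in every untreated KO library, and Lgmn and Ctsh lie below.

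With LPS, fewer of the 41 differed between KO and WT cells. There 15 were higher in KO cells and 3 lower, against 22% and 22.1% of all tested genes, and the median change was 0.080 (log2) against 7.8e-05 for all genes. By role, 4 proteases, 4 glycosidases, 2 lipid genes, 3 membrane genes and 2 pump genes were higher, and Lgmn, Npc2 and Atp6v0b were lower. Without the WT library that stood apart, 19 were higher and 5 lower, against 28.7% and 28.9% of all genes, with Ctsz, Ppt1, Hexa and Atp6v0d1 added on the higher side and Scarb2 and Glb1 on the lower. All 4 KO libraries lay above all 4 WT libraries for 14 genes and below them for 4, against 20.1% and 19.4% of all tested genes.

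Ctsc had the largest difference with LPS as well. Its 4 WT libraries held 2923, 2831, 2974 and 2495 and its 4 KO libraries 7625, 7857, 7611 and 7341. Every KO library exceeded every WT library, and the change was 1.44 ± 0.053 (adjusted p = 1.31e-11), a 2.72-fold difference. Atp6v0a1 was at 659, 640.0, 594 and 397 in WT and at 1159.5, 1227, 1189 and 1190.5 in KO cells. The last WT value, that of the library that stood apart, was the lowest, and the change was 1.08 ± 0.12 with it and 0.92 without it.

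Tpp1 (NM_009906, mm9 chromosome 7, 112893330 to 112900749, minus strand) stood at 978, 1126, 1058 and 662 in WT and at 1749, 1756, 1678 and 1755 in KO cells with LPS, a change of 0.89 ± 0.12 (adjusted p = 2.02e-05). The groups did not overlap. Ctsd held 9019, 8797, 9193 and 10411 in WT and 16490.3, 16648, 17161 and 16998 in KO libraries, again without overlap, and its change was 0.85 ± 0.051. Gla, the gene with the largest difference in untreated cells, gave 248, 225, 237 and 294 in WT libraries with LPS, against 337, 316, 294 and 294 in KO libraries. Here the WT library that stood apart lay level with the lowest KO libraries, and the change was 0.31 ± 0.076 (adjusted p = 0.00384).

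The 3 genes that fell in KO cells with LPS belong to 3 roles. Npc2 (NM_023409, mm9 chromosome 12, 86095509 to 86114062, minus strand), the soluble protein that hands cholesterol to the membrane transporter of the same disease pathway, stood at 7867, 7837, 8472 and 12197 in WT and at 4619, 4524, 4553 and 4426 in KO cells. All KO libraries lay below all WT libraries, of which the one that stood apart was by far the highest. The change was -0.98 ± 0.10 (adjusted p = 1.97e-06) and -0.83 without that library. Lgmn was at 3377, 3473, 3683 and 4772 in WT and at 2288, 2337, 2241 and 2235 in KO cells, a change of -0.74 ± 0.081. Atp6v0b (NM_033617, mm9 chromosome 4, 117556935 to 117559934, minus strand), a proteolipid of the proton channel, was at 3021, 2723, 3049 and 4616 in WT and at 2515, 2435, 2464 and 2438 in KO cells. Its groups did not overlap, but 1 WT library was far above the rest, and the change of -0.41 ± 0.11 became -0.25 without it.

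Laptm5 (NM_010686, mm9 chromosome 4, 130469231 to 130492063, plus strand), an adaptor protein of blood cell lysosomes, and Lipa (NM_001111100, mm9 chromosome 19, 34566806 to 34601964, minus strand) were higher in KO cells with LPS and not called without it. Without LPS, Laptm5 gave 9631, 9206, 10320.3 and 10002 in WT libraries against 11866, 11201, 11575 and 11427 in KO libraries. With LPS it gave 4840.0, 5328, 4726 and 2996 against 6914, 6853, 7098 and 6879. The KO libraries were above the WT libraries in both conditions, with changes of 0.24 (adjusted p = 0.162) and 0.67 (adjusted p = 4.93e-04). Without the library that stood apart, Laptm5 passed in both. Lipa gave 4648, 4553, 4966 and 5041 in WT against 5005, 4839, 5193 and 4924 in KO libraries without LPS, where the groups overlapped. With LPS it gave 2907, 3249, 2871 and 1829 against 4330.1, 4393, 4381 and 4100.2, and they did not. Its changes were 0.056 and 0.70 ± 0.12 (adjusted p = 3.41e-04).

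Placed side by side, 13 genes were higher in KO cells both without and with LPS: Ctsb, Ctsc, Ctsd, Tpp1, Lamp1, Mcoln1, Gaa, Gla, Gusb, Psap, Manba, Atp6v0a1 and Atp6v1a. Another 10 passed without LPS and not with LPS, namely Ctsa, Ctsl, Ctss, Ctsz, Lamp2, Hexa, Grn, Atp6v0c, Atp6v0d1 and Atp6v1b2. Lgmn was lower in both. No gene was called in opposite directions, and 12 passed in neither, among them Scarb2, the receptor that carries glucocerebrosidase to lysosomes (-0.075 and -0.11), Cd68 (0.16 and 0.22) and the pump accessory subunit gene Atp6ap1 (0.064 and 0.037).

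LPS itself lowered all 10 glycosidases, and each other role held genes called in both directions. The share of the 41 that rose was near that of all tested genes in WT cells and below it in KO cells. In WT cells 14 of the 41 rose and 23 fell after 6 hours, where 34.3% of all tested genes were called higher and 36% lower, with a median change of -0.34 (log2) for the 41. In KO cells 6 rose and 24 fell, against 31.6% and 35.9%, with a median of -0.39. All 10 glycosidases fell in both genotypes, and still did with library totals. The proteases divided, with 5 up and 5 down in WT and 1 up and 5 down in KO cells, and the pump had 5 up and 1 down in WT and 3 up and 3 down in KO cells. The lipid group had 2 up and 3 down in WT and 1 up and 3 down in KO cells, and the membrane proteins 2 up and 4 down, and 1 up and 3 down. Scaled by library totals, 9 rose and 28 fell in WT and 5 rose and 32 fell in KO cells, against 16.7% and 59.8% of all genes in WT and 16.9% and 57.5% in KO cells. Without the WT library that stood apart the WT counts stayed at 14 and 23, against 39.3% and 40.6% of all genes, and those of KO cells became 11 and 27, against 38.8% and 42%.

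**Figure D3:**
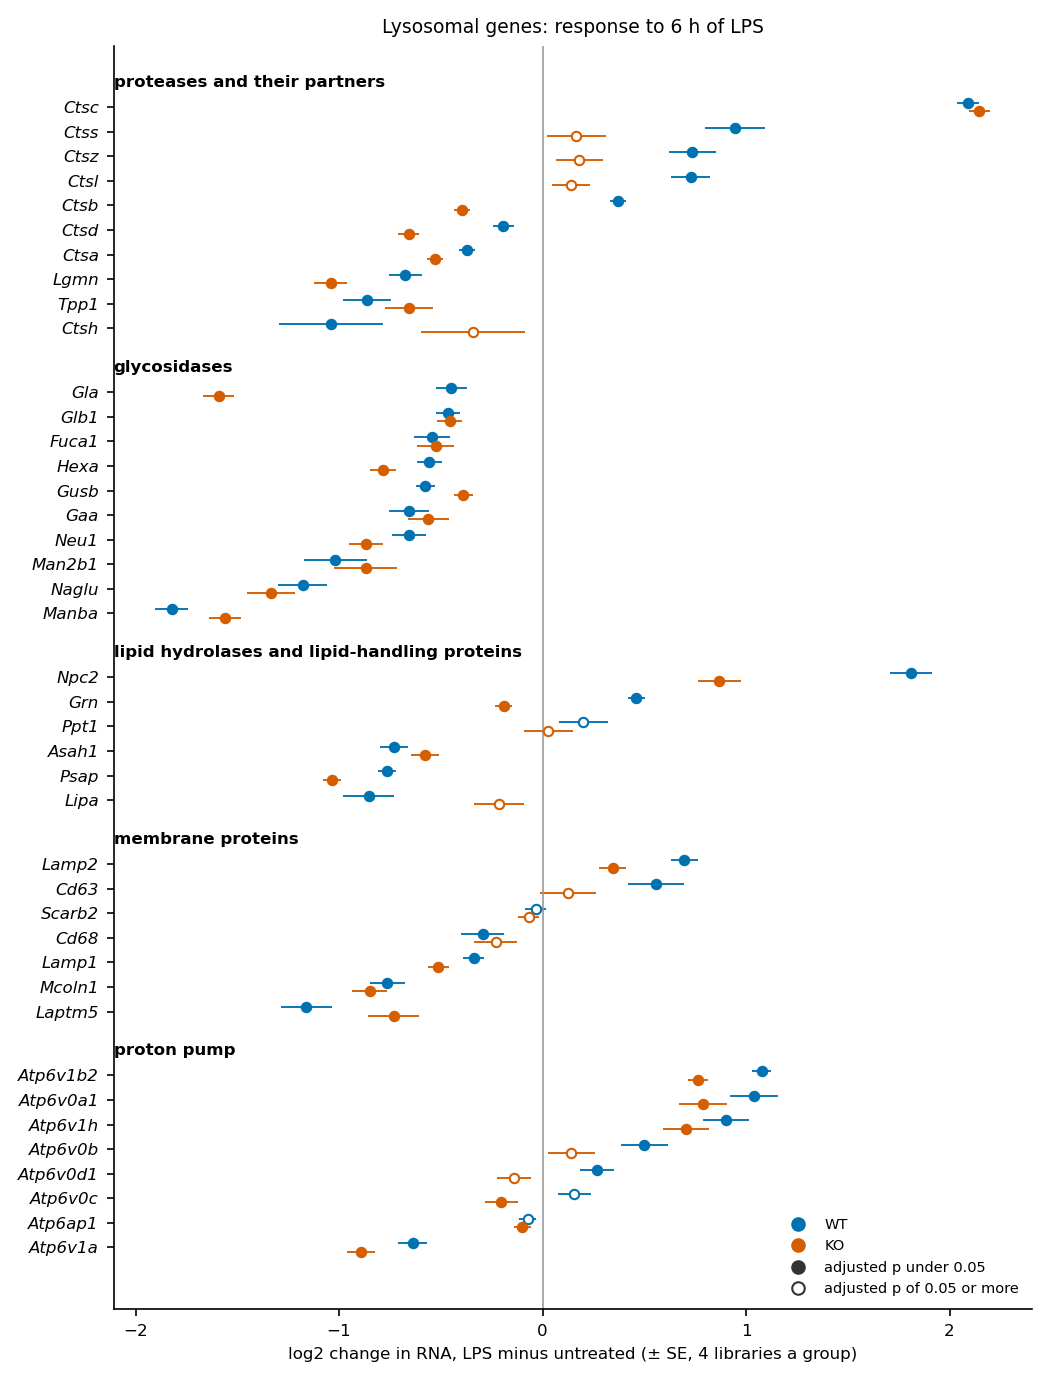
Response to LPS of the 41 lysosomal genes in WT (blue) and KO (orange) cells, grouped by role. The x axis is the log2 change of LPS against untreated cells with bars for 1 standard error, and filled points have an adjusted p under 0.05. All 10 glycosidases lie left of 0 in both genotypes, Ctsc lies farthest right in both, and Npc2 and Gla lie further left in KO cells.

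Ctsc, named above, gave the largest rise in both genotypes. It rose 4.26-fold in WT (log2 2.09 ± 0.053, adjusted p = 6.52e-15) and 4.43-fold in KO cells (2.15 ± 0.053, adjusted p = 6.17e-15). The difference between these responses was 0.057 ± 0.076 and did not pass. Npc2 was level across untreated cells, with 2667, 2585, 2458 and 2473 in WT and 2438, 2533, 2452 and 2496 in KO libraries, and rose 3.51-fold in WT and 1.83-fold in KO cells. Atp6v1b2 (NM_007509, mm9 chromosome 8, 71612635 to 71637616, plus strand) held 2481, 2411, 2455 and 2504 in untreated WT and 2916, 2893, 2944 and 2873 in untreated KO cells. With LPS the WT libraries gave 4939, 5007, 5163 and 5699 and the KO libraries 4938, 5007, 4875 and 4929, where the genotypes overlapped. It rose by 1.08 in WT and by 0.76 in KO cells. Atp6v0a1 rose by 1.04 and 0.79, Atp6v1h by 0.90 and 0.70, and Lamp2 by 0.70 and 0.34, the last of which turned to -0.046 with library totals.

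The deepest falls were in glycosidases. Manba (NM_027288, mm9 chromosome 3, 135148575 to 135234367, plus strand), which cleaves beta-mannose from glycoproteins, stood at 605, 615, 649 and 673 in untreated WT and 979, 900.0, 964 and 970.3 in untreated KO cells, and at 192, 194, 183 and 149 and 315, 352, 302 and 324 with LPS. LPS libraries lay far below untreated ones in both genotypes, with changes of -1.82 ± 0.080 and -1.56 ± 0.080. Naglu (NM_013792, mm9 chromosome 11, 100931408 to 100938985, plus strand), which acts on heparan sulfate, went from 623, 629, 677 and 667 to 319.9, 349, 289 and 207 in WT and from 723, 813, 748 and 823 to 292, 288, 319 and 329.9 in KO cells. Its changes were -1.18 ± 0.12 and -1.33 ± 0.12, again without overlap between LPS and untreated libraries. Laptm5 fell by 1.16 in WT and by 0.73 in KO cells, and Man2b1 by 1.02 and 0.87. Ctsh fell in WT, to 10.7, 7.12, 8.42 and 8.79 (-1.04 ± 0.26), and its KO libraries with LPS gave 3.91, 6.79, 10.5 and 5.74 (-0.34, adjusted p = 0.250). Gla fell by 0.45 in WT and by 1.59 ± 0.076 in KO cells, where it was the deepest fall of the 41.

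The 2 genotypes were called in opposite directions for 2 genes. Ctsb rose with LPS in WT, from the untreated values given above to 24249, 25402, 25422 and 24288, and fell in KO cells to 31628, 31512, 32543 and 32598, with changes of 0.37 and -0.40. Grn rose by 0.46 in WT and fell by 0.19 in KO cells. Both rises in WT depended on scaling, with -0.094 for Ctsb and -0.0066 for Grn by library totals. With LPS the KO libraries of Ctsb still exceeded all WT libraries (log2 0.37 ± 0.040).

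The difference between the responses was tested directly, as the response in KO minus that in WT cells. It passed for 15 of the 41, with 14 lower and 1 higher in KO cells, against 10.5% lower and 10.2% higher among all tested genes. The median difference of the 41 was -0.20. Proteases made up 6 of the 14, the lipid group and the pump 3 each, and the glycosidases and membrane proteins 1 each. Gla differed most (-1.14 ± 0.11, adjusted p = 1.27e-06), then Npc2 (-0.94 ± 0.15, adjusted p = 2.27e-04). Ctss (NM_001267695, mm9 chromosome 3, 95330708 to 95360327, plus strand), whose product trims the invariant chain of class II molecules, gave 5728, 5501, 5107 and 5550.5 in untreated WT against 7895, 7468, 7731 and 7382 in untreated KO libraries. With LPS the values were 8486, 8791, 10053 and 16429 against 8721, 8831, 8305 and 8337. With LPS the genotypes overlapped, and the last WT library was far above the rest, and the difference was -0.78 ± 0.21, or -0.57 without that library. WT cells responded by 0.95, and the KO response was 0.17 (adjusted p = 0.330). The difference for Ctsb was -0.77 ± 0.056 (adjusted p = 7.92e-08). Lipa was the 1 gene called with a higher response in KO cells (0.64 ± 0.18, adjusted p = 0.0167): it fell by 0.85 in WT, while its change in KO cells was -0.21 (adjusted p = 0.141). Without the WT library that stood apart, 23 were lower and 3 higher, against 19.9% and 18.9% of all genes.

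In untreated cells, a few ATAC-seq sites of lysosomal genes differed between KO and control cells, no larger a share than among all sites. Of the 212 ATAC-seq sites of 40 lysosomal genes, 8 were more open and 4 less open (adjusted p under 0.05), a share to be read against 4.04% and 3.16% of all sites. The more open sites included the promoters of Ctsc (0.24 ± 0.075 on the deposited log2 scale, with 6.95, 6.91 and 6.98 in control and 7.34, 7.10 and 7.14 in KO libraries) and of Ctsd (0.23 ± 0.077). The 3 KO libraries lay above the 3 control libraries at both. Others were in intron 1 of Ctsb (0.29), intron 4 of Manba (0.32), intron 1 of Laptm5 (0.25) and upstream of Ctsd, Atp6v0a1 and Atp6v0c. Less open were a site in intron 6 of Atp6v1a (-0.41), one in the 3′ UTR of Npc2 (-0.34), one upstream of Lgmn (-0.26) and one at the end of Ctsl (-0.20). Without control replicate 1 the count of 12 became 7. The other 200 sites did not pass.

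ChIP-seq groups count as 1 sample each, since their 2 libraries agreed within sampling noise (chi-square per site 0.823 to 1.16 over the 4 factors). The tests therefore compare libraries, not conditions, and ChIP levels carry no SD. The share of reads in sites differed between groups. For PU.1 it was 24.8 to 25.2% in untreated WT, 17.2 to 17.5% in untreated KO, 15.5 to 16% in WT with LPS and 11.7% in KO with LPS. Scaled by library totals, the median PU.1 site changed between KO and WT cells by -0.55 (log2) without and -0.42 with LPS, and no lysosomal site was called higher in KO cells. All ChIP changes below are relative to the median site of the table. Spi1, the gene of PU.1, had lower RNA in KO cells (log2 -0.64 without and -0.53 with LPS).

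Relative to the median site, PU.1 was higher in KO cells at 15 and lower at 8 of the 172 tested sites of lysosomal genes without LPS, against 4.89% and 3.05% of all sites. The largest number of reads lay upstream of Ctss (mm9 chromosome 3, 95325164 to 95325425, at -5414 bases from the start), with 401 and 367 reads in WT and 347 and 318 in KO libraries, a relative change of 0.48 ± 0.048. Sites upstream of Lamp1 (0.35), Psap (0.29) and Atp6v0a1 (0.49), at the start of Cd68 (0.32), in intron 1 of Lipa (0.74) and at the Naglu promoter (0.58) were also relatively higher. Lgmn, whose RNA fell, had relatively lower PU.1 at -3060 bases from its start (-0.86, 64 and 46 reads in WT against 20 and 17 in KO) and in intron 1 (-0.97). A site annotated to the Lamp2 promoter held 11 and 11 reads in untreated WT and 1 and 1 in untreated KO libraries, too few for a fold change. A site far upstream of Psap went from 43 and 30 to 13 and 9 reads (-0.999 ± 0.34). With LPS no site was higher and 9 were lower in KO cells, against 4.96% higher and 3.65% lower of all sites, while 41 had an unadjusted p under 0.05. They included sites at -75918 and -52171 bases from Ctsc (-0.61 and -1.06), a gene whose RNA was higher in KO cells, and sites at Ctsb (-0.97), Neu1 (-0.59), Atp6v1b2 (-0.58), Tpp1 (-0.57), Ctss (-0.52), Psap (-0.48) and Lipa (-0.45). Without untreated WT replicate 1 the 23 calls of untreated cells became 7, and without WT replicate 1 with LPS the 9 became 2.

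At 5 places the ATAC-seq and PU.1 changes of untreated cells met at the same site. Their PU.1 centres are shown (201 bases, mm9, plus strand), with the same motifs in capitals on either strand, because both readouts changed there.
Atp6v0a1, chr11:100864486-100864686: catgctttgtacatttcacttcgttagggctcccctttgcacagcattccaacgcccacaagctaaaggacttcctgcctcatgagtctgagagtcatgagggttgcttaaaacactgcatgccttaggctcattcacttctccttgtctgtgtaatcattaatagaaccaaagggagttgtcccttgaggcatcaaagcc
Atp6v0c, chr17:24307760-24307960: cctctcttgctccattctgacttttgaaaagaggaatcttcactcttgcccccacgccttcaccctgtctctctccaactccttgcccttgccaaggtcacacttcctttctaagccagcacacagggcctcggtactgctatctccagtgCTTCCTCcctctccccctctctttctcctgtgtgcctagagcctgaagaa
Atp6v1a, chr16:44109375-44109575: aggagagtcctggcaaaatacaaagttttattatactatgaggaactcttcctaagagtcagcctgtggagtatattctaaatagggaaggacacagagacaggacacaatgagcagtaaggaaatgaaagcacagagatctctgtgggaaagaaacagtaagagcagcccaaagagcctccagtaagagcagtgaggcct
Ctsd, chr7:149583930-149584130: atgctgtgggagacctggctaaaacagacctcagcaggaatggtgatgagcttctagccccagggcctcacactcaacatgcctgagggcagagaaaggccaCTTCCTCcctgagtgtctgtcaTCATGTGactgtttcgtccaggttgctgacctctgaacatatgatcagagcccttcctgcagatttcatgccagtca
Laptm5, chr4:130477442-130477642: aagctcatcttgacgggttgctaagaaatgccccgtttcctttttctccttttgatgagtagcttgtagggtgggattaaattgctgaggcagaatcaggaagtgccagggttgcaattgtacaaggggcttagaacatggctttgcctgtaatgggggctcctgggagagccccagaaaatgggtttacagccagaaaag

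Upstream of Ctsd (chr7:149583894-149584167) the window held GAGGAAG as its reverse complement and 1 TCATGTG, and that upstream of Atp6v0c (chr17:24307715-24308005) held GAGGAAG as its reverse complement. The windows of Atp6v0a1 (chr11:100864435-100864738), Atp6v1a (chr16:44109323-44109628) and Laptm5 (chr4:130477410-130477674) held none of these motifs. GAGGAAG occurred in 43.5% of all 52033 PU.1 windows of this length, TGANTCA in 13.9%, TCATGTG in 3.87%, CACGTG in 3.35% and TCACGTG in 1.52%.

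Ctsd gave the most reads of the 5. Its site at -10298 bases had 128 and 102 PU.1 reads in untreated WT and 112 and 83 in untreated KO libraries (relative change 0.44 ± 0.12), and ATAC-seq values of 7.63, 7.66 and 7.62 in control against 7.97, 7.90 and 7.98 in KO libraries (0.31 ± 0.070). The ATAC-seq groups did not overlap. At the Atp6v0a1 site at -6169 bases the PU.1 reads were 21 and 21 against 27 and 27 (1.04 ± 0.28) and the ATAC-seq values 4.23, 4.05 and 4.37 against 4.60, 4.61 and 4.49 (0.35 ± 0.075). At the Laptm5 site in intron 1 the PU.1 reads were 23 and 21 against 31 and 28 (1.098 ± 0.27), and at the Atp6v0c site 54 and 56 against 62 and 43 (0.62 ± 0.18). The site in intron 6 of Atp6v1a went the other way in both readouts, with 32 and 35 PU.1 reads in WT against 7 and 9 in KO libraries (-1.34 ± 0.41) and ATAC-seq values of 4.23, 4.32 and 4.37 against 3.85, 3.97 and 3.88 (-0.41 ± 0.071). Atp6v1a RNA was higher in untreated KO cells.

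**Figure D4:**
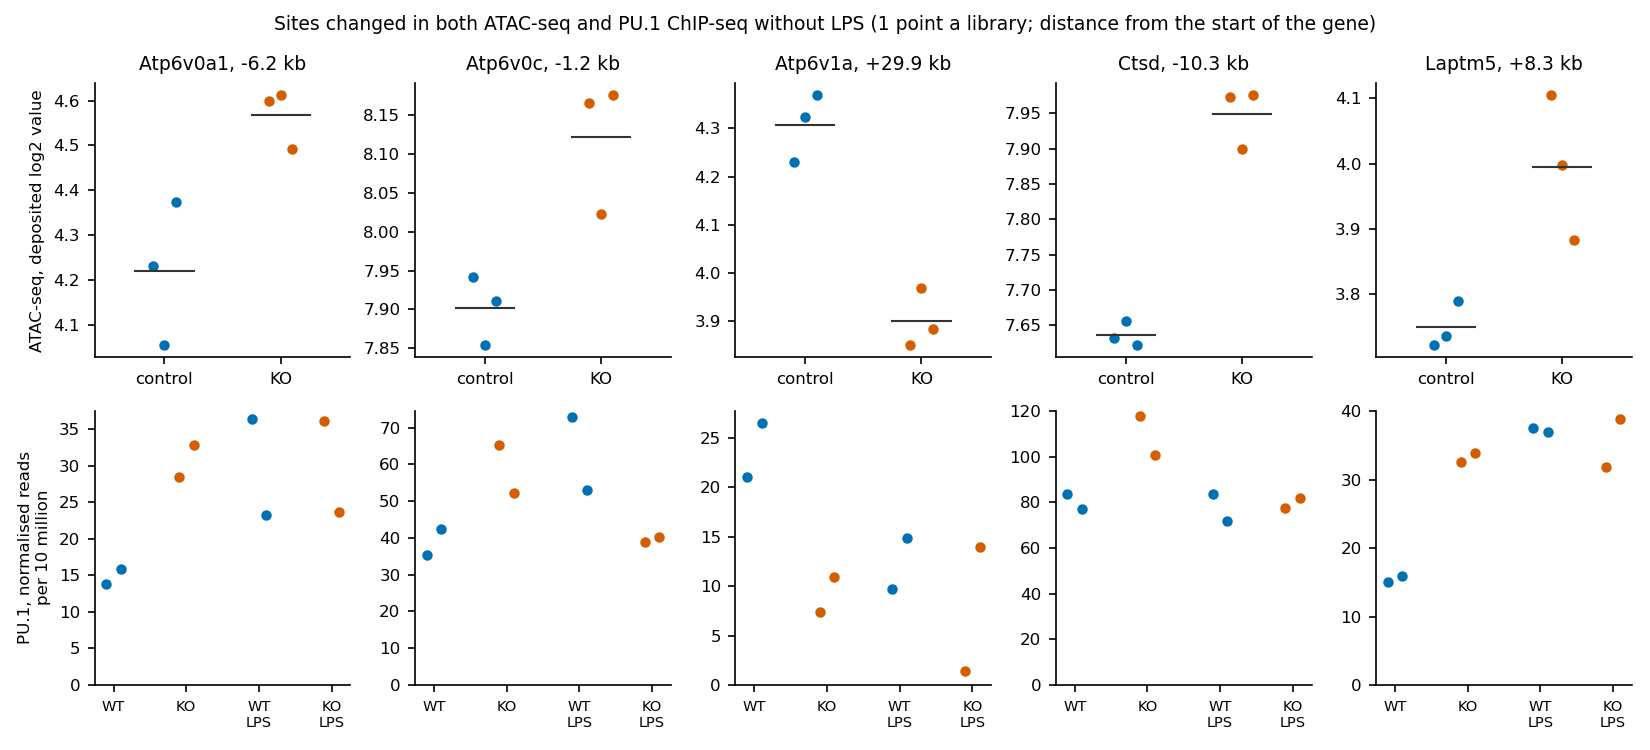
The 5 sites of lysosomal genes that changed in both ATAC-seq and PU.1 ChIP-seq of untreated cells. Upper panels give ATAC-seq values (deposited log2 scale, y axes not from 0) in 3 control and 3 KO libraries, and lower panels give normalised PU.1 reads per 10000000 in the 2 libraries of each of the 4 groups. In untreated cells the KO points lie above at Atp6v0a1, Atp6v0c, Ctsd and Laptm5 and below at Atp6v1a.

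The response of PU.1 to 2 hours of LPS was compared within each genotype. In WT cells 26 sites were relatively higher and 8 lower, against 11.5% and 7.25% of all sites, and in KO cells 17 were higher and 22 lower, against 11% and 7.86%. By library totals the split turned to 1 higher and 102 lower in WT and to 4 higher and 92 lower in KO cells, against 1.33% and 59.4% of all sites in WT and 2.97% and 39.7% in KO cells. Within 1 kb of a start, Laptm5 gained PU.1 in both genotypes (0.89 and 0.71), and Ctss lost it in both (-0.37 and -0.45). Ctsc gained it at -677 bases in WT (0.97, with 47 and 28 reads before and 40 and 50 after LPS) and at -165 bases in KO cells (1.19). Lipa, Manba and Naglu lost it in KO cells (-0.61, -0.60 and -0.70). The largest gains of WT cells were far upstream of Psap (1.76), at the Laptm5 site in intron 1 shown above (1.26), at Cd63 (1.18) and upstream of Atp6v1b2 (1.08), and the largest loss was at Manba (-1.13, 58 and 60 reads before and 13 and 20 after). In KO cells the Lamp2 site went from 1 and 1 to 10 and 11 reads, sites at Psap (1.47) and Ctsh (1.24) gained, and sites at Ctsc (-1.49) and Neu1 (18 and 18 reads before, 5 and 2 after) lost. Without WT replicate 1 with LPS the 34 calls in WT became 20, and without untreated KO replicate 1 the 39 in KO cells became 19. Whether the genotypes differed in these responses was not tested.

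JunB reads were few without LPS, with 6.91 to 7.51% of reads in sites in WT and 5.79 to 6.01% in KO libraries, and rose to 28.8 to 29.2% and 25.2 to 26.4% with LPS. By library totals the median site rose with LPS by 2.02 (log2) in WT cells and by 2.22 in KO cells. Nearly all lysosomal sites rose (206 and 197 of 209), as did 95% and 91.8% of all sites. Relative to the median site, 9 of 204 tested lysosomal sites were higher in untreated KO cells and none was lower, against 6.39% and 2.12%, while 30 had an unadjusted p under 0.05. Of these 9, 7 lay at a transcription start (share over all such sites not counted): Ctsb, Scarb2, Lgmn, Naglu, Manba, Gaa and Lipa. Counts there were low, as at Ctsb with 4 and 15 reads in WT and 24 and 15 in KO libraries (2.13 ± 0.43), and without untreated WT replicate 2 the 9 became 3. By library totals 4 were higher and 16 lower, against 3.29% and 7.92% of all sites.

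With LPS, JunB was relatively higher in KO cells at 13 and lower at 47 lysosomal sites, against 15.5% and 15.4% of all sites. By library totals 4 were higher and 67 lower, against 9.39% and 23.1%. Promoter sites of Atp6v0a1 (0.70 ± 0.19, with 47 and 44 reads in WT and 55 and 70 in KO libraries), Ctsa (0.49), Ctss (0.44), Gaa (0.54) and Gusb (0.39) were higher, and those of Lipa (-0.83), Asah1 (-0.47) and Laptm5 (-0.40) lower. The largest changes lay in intron 1 of Manba (-1.35), upstream of Atp6v1b2 (-1.27), at Scarb2 (1.17) and at Ctss (1.11). Another (-1.12) lay at an intergenic site 93988 bases from the Manba start. The LPS response of JunB, again relative to the median site, was higher at 36 and lower at 52 lysosomal sites in WT cells (17.1% and 22.5% of all sites) and higher at 15 and lower at 44 in KO cells (14.2% and 20.6%). Within 1 kb of a start, 17 of 35 sites were lower in WT and 19 in KO cells, with Npc2 (-1.42 and -1.85), Manba (-1.17 and -2.66) and Ctsb (-1.096 and -2.55) among both. The share over all JunB sites within 1 kb of a start was not counted, so these numbers describe the lysosomal sites only. The largest gains started from very few reads, as at -33676 bases from Ctsc with 3 and 2 reads before and 61 and 58 after LPS in WT, and 1 and 2 against 51 and 61 in KO cells. At -5880 bases from Lamp2 reads went from 1 and 2 to 50 and 48 in WT cells. At 48250 bases from the Lgmn start, where the site overlapped no protein-coding gene, they went from 1 and 2 to 49 and 39. Reads went from 7 and 2 to 71 and 60 at a site in intron 13 of Manba (2.03) and from 1 and 2 to 28 and 26 at an intergenic site nearest to Ctsc (1.99). The deepest relative losses of KO cells were at the Lipa promoter, from 16 and 14 to 13 and 11 reads (-2.71), at the Manba and Ctsb start sites just given, and in the last exon of Npc2, from 21 and 14 to 14 and 23 (-2.32). The 60 calls between genotypes with LPS became 30 without KO replicate 2 with LPS. Without untreated replicate 1 of the same genotype, the 88 response calls became 44 in WT and the 59 became 37 in KO cells.

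MED1, the Mediator subunit that joins enhancers to the transcription machinery, was measured with LPS only. Its reads in sites made up 14.6% in WT and 8.81 to 8.92% in KO libraries, and by library totals the median site changed between KO and WT cells by -0.77. Relative to that, 10 of 112 tested lysosomal sites were higher and 2 lower, against 5.59% and 1.99% of all sites. A broad site over Ctsd and its upstream region (chromosome 7, 149570070 to 149586139) held 599 and 611 reads in WT and 679 and 710 in KO libraries, a relative change of 0.72 ± 0.043 that includes the upstream place described above. Both Ctsb sites were higher, by 0.55 at the one that covers the start and by 0.22 at the one in intron 1. Sites at Grn (0.23), Hexa (0.28), Neu1 (0.71) and Cd68 (0.39, a site that also covers Eif4a1, Mpdu1 and Senp3) were higher as well. So were sites upstream of Psap (0.39) and far upstream of Atp6v1b2 (0.40). A site past the end of Grn gave 1.92, with 6 and 10 against 18 and 25 reads, and overlapped Fam171a2 in place of Grn. Lgmn (-0.92) and Scarb2 (-0.56) were lower. Leaving out 1 library left 4 to 8 sites called, all of them higher, and library totals turned the split to 1 higher and 80 lower, against 0.61% and 67.9% of all sites.

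Pol2 was measured with LPS only. Its reads in sites made up 45.0 to 46.4% in WT and 14.2 to 14.4% in KO libraries, and by library totals the median site changed between KO and WT cells by -1.88, with 1 lysosomal site higher and 74 lower, against 2.76% and 90.3% of all sites. Relative to the median site, 23 of 78 were higher and 23 lower, against 25.6% and 21% of all sites. The largest relative gains were at 2 thinly covered intergenic sites annotated to Manba, 97127 and -12809 bases from its start. They held 3 and 5 reads in WT against 16 and 18 in KO libraries, and 10 and 4 against 13 and 11. Neither overlapped a protein-coding gene. The deepest relative losses were at 2 of the 3 Lgmn sites and upstream of Scarb2, with 21 and 25 against 1 and 2 reads at the latter. The Lgmn sites gave -2.30, and -1.74 at -12426 bases from the start, with 745 and 824 against 67 and 63 reads. For each of the 37 genes with a site, the site with the most reads over all Pol2 libraries was set beside RNA. WT libraries held most of these reads, so the choice can lean towards sites relatively high in WT cells. The chosen site overlapped the gene's own transcript for 35, and not for Gaa and Atp6v1b2. Pol2 and RNA calls were not set side by side over all genes, so the numbers below describe the lysosomal genes only.

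Pol2 and RNA were both higher in KO cells with LPS for 5 genes. At Ctsb the Pol2 reads were 3642 and 3979 in WT and 1293 and 1346 in KO libraries (0.31 ± 0.033), at Ctsd 6051 and 6560 against 2064 and 2048 (0.23 ± 0.025) and at Ctsc 281 and 302 against 121 and 126 (0.61 ± 0.12). The other 2 were Psap (1.08) and Atp6v0a1 (0.48). KO libraries held fewer reads than WT libraries at each of these 3, and the decrease was smaller than at the median site. Lgmn was lower in both, with 1033 and 1114 against 57 and 64 reads (-2.30 ± 0.14).

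For 7 genes Pol2 was relatively lower while RNA was higher: Lipa (-1.25), Gla (-1.1), Manba (-0.89), Laptm5 (-0.75), Atp6v1a (-0.55), Gusb (-0.42) and Mcoln1 (-0.40). Npc2 was the reverse, with Pol2 at 650 and 743 reads in WT and 491 and 508 in KO libraries (1.37 ± 0.066) and RNA lower. At Manba the site compared was the one at its start. A site inside the Manba gene was relatively higher in KO cells, with 46 and 54 reads in WT against 26 and 24 in KO libraries. Sites upstream of Manba that passed were relatively higher too. In 6 Pol2 was higher and RNA not called (Ctsz, Lamp2, Hexa, Grn, Atp6v0c and Atp6v1b2), in 7 it was lower and RNA not called, and in 10 Pol2 did not pass. Pol2 was measured after 2 hours of LPS and RNA after 6 hours, and some Pol2 sites cover neighbours: that of Npc2 also covers Isca2, that of Gla Hnrnph2, that of Atp6v1a Naa50, that of Grn Fam171a2, that of Ctsd 6330512M04Rik, that of Ctsz Th1l, that of Ppt1 Cap1, that of Fuca1 Cnr2 and that of Atp6v0d1 Agrp. The site of Ctsa also covers 1700020C07Rik, Pltp, Neurl2 and Zswim1, that of Atp6v0b also B4galt2 and Dph2, and that of Gaa covers Ccdc40 in place of Gaa. Their part in these values was not tested.

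**Figure D5:**
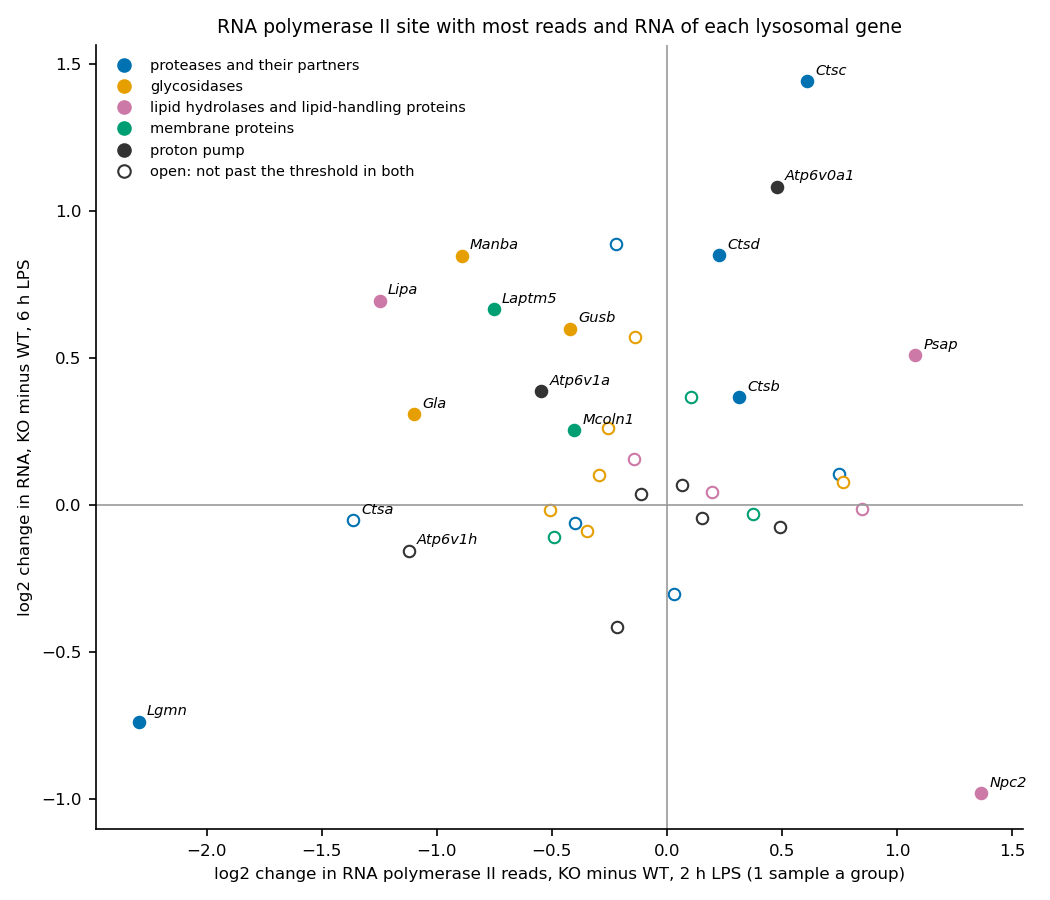
Change in Pol2 occupancy after 2 hours of LPS (x axis, log2 relative to the median site) against change in RNA after 6 hours of LPS (y axis, log2), KO against WT, for the 37 lysosomal genes with a Pol2 site. Each point is 1 gene at its site with the most reads, and filled points passed the threshold in both readouts. Ctsb, Ctsc, Ctsd, Psap and Atp6v0a1 are filled at upper right, Lgmn at lower left, Npc2 at lower right and 7 genes at upper left.

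Other genes of the lysosome, not among the 41, were listed by role. Their counts are to be read against the shares of all tested genes. Between KO and WT cells 18% were higher and 17.4% lower without LPS, and 22% and 22.1% with LPS. LPS raised 34.3% and lowered 36% in WT cells, and raised 31.6% and lowered 35.9% in KO cells. Of 27 other hydrolases 11 were higher and 3 lower in untreated KO cells, led by Ctsk, a collagen-degrading cathepsin (1.26), and Acp5, an acid phosphatase (0.87), with Hgsnat (-0.54) and Ctsf (-0.53) lowest. With LPS the KO cells had 10 higher and 7 lower. LPS lowered 20 of the 27 in WT and 22 in KO cells, the deepest being Sgsh, a heparan sulfatase (-3.30 and -2.65). Of 19 tested membrane proteins 11 were higher and 1 lower in untreated KO cells (Litaf 1.49, Laptm4b 1.46, Tpcn1 -0.76), and 4 higher and 3 lower with LPS. LPS raised 11 and lowered 5 of them in WT, and raised 6 and lowered 10 in KO cells. Of 11 other pump subunits 5 were higher and 1 lower without LPS, with Atp6v0d2 at 1.099, Atp6v1d at 0.98 and Atp6v0e2 at -0.38, and 3 higher and 1 lower with LPS. LPS raised 5 and lowered 2 of these pump genes in WT, and raised 2 and lowered 4 in KO cells.

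Genes that sort, inhibit or regulate lysosomal proteins were called in both directions, to be read against the same shares of all tested genes. Of 11 sorting genes 3 were higher and 1 lower in untreated KO cells (Sort1 0.83, Gga2 0.52, Gga1 -0.44). Of 3 tested cysteine protease inhibitors Cst7 was higher (2.48 without and 2.20 with LPS) and Cst3 lower without LPS (-0.30). Among 18 tested regulators 6 were higher and 3 lower in untreated KO cells, and 1 higher and 4 lower with LPS. Tfeb, which encodes a factor that binds E-box elements of lysosomal genes, was lower in KO cells (-1.11 and -0.79), as was Mitf (-0.44 and -0.82). Their relative Tfec was higher (1.24 and 0.95), and Fnip2, of the folliculin complex, rose without LPS (2.01). Tfeb RNA fell by 2.94 with LPS in WT and fell by 2.62 in KO cells, and Tfec rose by 1.91 and 1.62. Of 17 autophagy genes 3 were higher and 3 lower in untreated KO cells, close to the 18% and 17.4% of all tested genes. Sqstm1 stood at 0.81 and Map1lc3a at -1.11.

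Marker genes matched the labelled cell type. All 8 macrophage markers had reads, with summed levels of 76613 to 84875 in untreated WT, 108140 to 114540 in untreated KO, 77174 to 107570 in WT with LPS and 96808 to 102236 in KO libraries with LPS. Of these 8, 4 were higher and 1 lower in untreated KO cells, against 18% and 17.4% of all tested genes. Lymphocyte markers summed to at most 2.59 and fibroblast and epithelial markers to at most 1.097, with Cd3e, Epcam and Dcn at 0 or without a row. Of 10 granulocyte and dendritic cell markers, Elane, Mpo, S100a9, Ly6g, Flt3 and Siglech were at 0 or without a row. The sum was 28.5 to 33.3 in untreated WT and 102.5 to 117.6 in untreated KO libraries, with Csf3r (2.44) and S100a8 (2.11) higher. With LPS the order turned, with 214.3 to 314.5 in WT and 143.4 to 173.7 in KO libraries. Osteoclast markers, which share Ctsk, Acp5 and Atp6v0d2 with the lysosomal lists above, summed to 1193 to 1337 in untreated WT, 1294 to 1387 in untreated KO, 1805 to 2349 in WT with LPS and 6239 to 6481 in KO libraries with LPS, with Calcr at 0 or without a row. Their part in the lysosomal changes was not tested.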

How the data were processed

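Of 247 samples in the series, 46 with values for these assays were used: 16 for RNA-seq, 6 for ATAC-seq and 24 for ChIP-seq. The deposited RNA-seq and ChIP-seq tables hold a normalised score, reads per 10000000 mapped reads, per the file headers, and the deposited ATAC-seq table holds log2 values made by the authors, whose transformation is not given in the sources used here. The submitters' processing notes name mm9, Bowtie2, BWA, HISAT2, HOMER, MACS2, DESeq2 and edgeR, without roles or versions. Another 8 columns of values were not used.

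Low values of the RNA-seq and ChIP-seq tables were whole multiples of 1 read (tolerance 0.05 of a read, up to 200 reads). The value of 1 read in each library was fitted to these multiples by least squares. Reads were recovered by division by that value, and the mapped reads given here are 10000000 divided by it. RNA was tested with limma 3.58.1 (R 4.3.3; trend, robust) on log2(value + 1) after TMM scaling, with all 16 libraries in 1 fit. ATAC-seq values were tested with limma as deposited, and ChIP-seq reads with limma's voom weights after TMM scaling. A feature was tested if its value reached 10 reads at median depth in a number of libraries equal to the smallest group, with 15 reads in all. Calls have a Benjamini-Hochberg adjusted p under 0.05 over all features of a table. Mapped reads were 12094940 to 22968591 for RNA, 8096447 to 10389945 for PU.1, 8649101 to 16006515 for JunB, 9793466 to 11932305 for MED1 and 10230440 to 11113644 for Pol2. The depth of the ATAC-seq libraries was not used here. The scripts were tested on simulated data.

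The lysosomal genes and all gene lists were chosen with earlier results of these data known. Values by library are given for the 4 genes with the largest rise and the 4 with the largest fall in each RNA comparison, and the 5 sites with the largest change in each comparison are named. Other sites, and the library values of Laptm5 and Ctss outside that rule, were chosen after their values were seen. Alternatives were other scalings, pseudocounts, filters and weights, a replicate block and leaving out each library. Promoter sequences are from RefSeq (GRCm38.p6) and site windows from the mm9 genome (NCBIM37).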

Additional observations from a re-analysis of the deposited data

Results flagged for a closer look

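In the WT libraries with LPS, 1 Npc2 value of 12197 lay far above the other 3 by Dixon's test. In the KO libraries with LPS, 1 Tpp1 value of 1678 lay below the other 3. These were 2 of 64 groups of 4 libraries tested, and chance marks about 1 in 20. The Npc2 value belongs to WT replicate 4, the library that stood apart, and its part in the group's spread was not tested further.

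The response to LPS differed between genotypes for 15 of the 41 lysosomal genes, by limma's test of the difference with all 16 libraries. As KO minus WT on the log2 scale, the differences among proteases were -0.77 for Ctsb, -0.46 for Ctsd, -0.59 for Ctsl, -0.78 for Ctss, -0.56 for Ctsz and -0.37 for Lgmn. The lipid group gave -0.94 for Npc2, -0.27 for Psap, -0.65 for Grn and 0.64 for Lipa. Gla gave -1.14 and Lamp2 -0.35. The pump genes Atp6v0c, Atp6v0d1 and Atp6v1b2 gave -0.36, -0.41 and -0.31. Without WT replicate 4 with LPS 26 genes passed.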

How the results depend on the processing

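Of 4674 values of single genes under the alternatives, 4470 kept their direction and their side of the threshold, 114 newly passed, 81 no longer passed and 9 changed sign. All 9 changed sign with library totals, whose shift of the median gene is part of that scaling: in WT cells with LPS Ctsb -0.094, Ppt1 -0.27, Grn -0.0066, Atp6v0c -0.31 and Atp6v0d1 -0.20, and in KO cells Ctsl -0.25, Ppt1 -0.36, Lamp2 -0.046 and Atp6v0b -0.25. With library totals the site counts became 81 for MED1, 75 for Pol2, 98, 75, 103 and 96 for PU.1 (KO against WT untreated and with LPS, LPS in WT and in KO), and for JunB 20 in untreated cells, 206 for LPS in WT and 197 for LPS in KO. The difference of the LPS responses passed for 26 genes with library weights. Of the ATAC-seq sites within 1 kb of a start, tested alone, 1 passed.

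Leaving out 1 library gave 23 to 34 genes for KO against WT without LPS, 17 to 24 with LPS, 37 to 39 for LPS in WT, 28 to 38 for LPS in KO and 12 to 26 for the difference. Sites ranged from 7 to 14 for ATAC-seq, 4 to 8 for MED1 and 41 to 42 for Pol2. PU.1 ranged from 7 to 23, 2 to 11, 20 to 35 and 19 to 39 in the order above, and JunB from 3 to 10, 30 to 61, 44 to 100 and 37 to 61. A ChIP-seq group left with 1 library was assumed to vary like the others. MED1 gave 6 and 4 without WT replicates 1 and 2 and 5 without KO replicate 2. PU.1 in untreated cells gave 7 and 12 without WT replicates 1 and 2 and 8 without either KO replicate. PU.1 with LPS gave 2 without WT replicate 1, and 2 and 4 without KO replicates 1 and 2. For the PU.1 response, WT gave 20 and 21 without LPS replicates 1 and 2, and KO gave 19 and 23 without untreated and 20 and 19 without LPS replicates 1 and 2. JunB in untreated cells gave 4 and 3 without WT replicates 1 and 2 and 4 without KO replicate 1, and with LPS 38 without WT replicate 1 and 30 without KO replicate 2. The JunB response gave 44 and 55 without untreated WT replicates 1 and 2 and 37 without untreated KO replicate 1.

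Replicate numbers did not pair the samples: in RNA, same-numbered libraries had a median correlation of -0.058 (6 of 24 over 0.1) and others 0.036 (17 of 72). With a replicate block 24, 18, 37, 28 and 13 genes passed in the 5 RNA comparisons, and 12 sites in ATAC-seq, 11 for MED1, 46 for Pol2, 22, 12, 32 and 42 for PU.1 and 13, 44, 88 and 63 for JunB. The edgeR quasi-likelihood alternatives were not run, since the deposited values are not counts, and the fit on only the groups compared gives no value for the difference of responses. Sites with few reads limit the JunB calls in untreated cells.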
